A study of Mus musculus with 7 samples.

Results

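The regions described here were 3353 stretches of open chromatin found in Dll1- but not in Dll1+ mammary tumour cells of the mouse, away from promoters and without a perfect AP-1 sequence at their summit. They were chosen by measured values. Overlapping or touching rows of both peak lists were merged into 119215 union regions, of which 29318 (24.6%) held rows of the Dll1- list only. Of these, 6176 had a row whose fold enrichment, the reads at the summit relative to the local background, was above the median of the Dll1- list. A midpoint more than 1000 bp from every protein-coding transcription start site (TSS) was required next, which left 5935 distal regions. A further 2582 were set aside because TGAGTCA or TGACTCA, the 7-bp TPA response element bound by AP-1, lay within 100 bp of the strongest summit. The 3353 that remained, called AP-1-negative Dll1- only regions below, were 3.26% of the 102822 distal union regions.

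Both lists came from ATAC-seq, in which a transposase inserts adapters into accessible DNA. The cells were sorted from tumours of MMTV-PyMT mice on the C57BL/6 background, in which the mouse mammary tumour virus promoter drives the polyoma middle T oncogene, and all mice also carried Dll1-mCherry, a reporter of the Notch ligand Dll1 on a bacterial artificial chromosome. Cells bearing CD45, CD31 or Ter119 were removed, and the rest were divided by mCherry into Dll1- cells (4 samples) and Dll1+ cells (3 samples), which came from 4 tumours, 3 of them giving both. Ages at sampling were not given in the sources used here, and no cells without the oncogene entered the comparison. Each list pooled the samples of its group, so a value for a single sample, a replicate error and a test between the groups were not possible, and every comparison below is a description of 2 pooled lists. Intervals are 95% Wilson intervals over regions. They cover counting error only, because regions are no replicates and the reads carried no molecular identifiers that would make them separate molecules. In a sorted pool, fewer cells with an open region and less accessibility per cell cannot be told apart.

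Distal open regions include enhancers and insulators. AP-1, the dimer of Fos and Jun proteins, is a common enhancer-binding factor of epithelial and tumour cells and binds TGAGTCA and TGACTCA most tightly, with weaker binding to related heptamers. CTCF is a zinc finger protein with a long recognition sequence that marks insulators and, together with cohesin, the anchors of chromatin loops.

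The sequences that carry the description are shown first, as 151 bp centred on the strongest summit on the plus strand of GRCm38, named by the gene with the nearest protein-coding TSS. Nearness to a TSS is a position and does not show that a region acts on that gene. The first 6 were the 6 strongest regions by fold enrichment, and capitals mark any heptamer that is 1 mismatch from the AP-1 consensus.
Kdm8 (chr7:124828805-124828955): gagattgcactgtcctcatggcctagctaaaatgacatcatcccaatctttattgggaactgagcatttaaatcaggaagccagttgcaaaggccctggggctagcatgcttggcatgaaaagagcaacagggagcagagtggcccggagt
Cerk (chr15:86194730-86194880): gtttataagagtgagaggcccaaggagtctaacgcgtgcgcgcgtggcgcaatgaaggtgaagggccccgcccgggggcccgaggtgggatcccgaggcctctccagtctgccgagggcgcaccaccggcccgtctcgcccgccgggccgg
Creb1 (chr1:64355459-64355609): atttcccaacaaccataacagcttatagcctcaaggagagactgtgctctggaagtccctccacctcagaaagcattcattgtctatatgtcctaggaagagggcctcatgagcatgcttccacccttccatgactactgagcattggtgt
Aasdhppt (chr9:4020157-4020307): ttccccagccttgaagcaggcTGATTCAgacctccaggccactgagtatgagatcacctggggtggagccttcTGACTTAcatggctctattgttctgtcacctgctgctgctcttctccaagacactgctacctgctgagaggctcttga
Gramd1c (chr16:44002191-44002341): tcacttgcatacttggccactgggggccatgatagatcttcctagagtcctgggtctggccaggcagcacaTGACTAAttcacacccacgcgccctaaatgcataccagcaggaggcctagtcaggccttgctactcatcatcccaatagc
Usp47 (chr7:112056014-112056164): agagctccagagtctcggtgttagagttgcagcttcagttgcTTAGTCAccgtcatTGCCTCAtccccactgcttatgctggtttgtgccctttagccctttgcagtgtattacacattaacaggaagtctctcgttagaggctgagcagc
In the next pair capitals mark the 12-letter CTCF consensus, on either strand. They were the strongest AP-1-negative Dll1- only regions to hold it, and the second was picked after the values had been seen.
Kif2a (chr13:107121653-107121803): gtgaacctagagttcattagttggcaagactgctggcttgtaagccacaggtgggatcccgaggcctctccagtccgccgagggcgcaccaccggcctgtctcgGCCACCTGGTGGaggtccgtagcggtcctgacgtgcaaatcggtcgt
Gm5294 (chr5:138857368-138857518): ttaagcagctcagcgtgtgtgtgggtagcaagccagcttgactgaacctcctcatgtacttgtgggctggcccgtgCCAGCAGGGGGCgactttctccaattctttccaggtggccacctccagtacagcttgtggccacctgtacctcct
The last pair holds, in capitals, the 2 AP-1-like heptamers with the highest shares below, TGACTAA and TGAATCA. On the other strand the first reads TTAGTCA and the second reads TGATTCA. Both heptamers were picked out after the shares of all 19 had been seen.
Ptprn2 (chr12:116553495-116553645): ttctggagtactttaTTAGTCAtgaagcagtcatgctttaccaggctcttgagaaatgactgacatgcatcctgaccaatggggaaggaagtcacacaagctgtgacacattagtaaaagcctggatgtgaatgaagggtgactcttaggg
Atl2 (chr17:79811686-79811836): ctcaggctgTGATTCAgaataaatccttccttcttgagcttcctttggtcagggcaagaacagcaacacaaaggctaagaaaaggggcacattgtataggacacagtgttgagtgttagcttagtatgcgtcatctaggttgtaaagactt
Among the 6 strongest, the windows near Kdm8, Cerk and Creb1 held no marked heptamer, whereas the window near Gramd1c held TGACTAA over the summit itself. The windows near Cerk and Kif2a had a run of 27 bases in common, which occurs at 6 places in the reference. Of these, 2 lay in union regions, both of them members of the set, and how reads that match several places were handled is not given in the sources used here. Whether the reads at these 2 regions came from there or from other copies cannot be told. Sharing within the set was infrequent, because 54 of the 3353 regions had a run of at least 27 bases in common with another of them within 100 bp of their summits, and 31 had one of at least 31 bases. Copies outside the set were not counted for these. The counts thus do not show how often a region held sequence found at several places.

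The AP-1-negative Dll1- only regions were open at a modest level. Their fold enrichment ran from 5.00 to 14.8, with a median of 5.98 (quartiles 5.37 to 6.83), and since this value chose them it is a description. The median region stood at the 60.1th percentile of the rows of its own list, so that "strong" holds only against the list median. Shared distal regions without AP-1 that passed the same threshold (36459 regions) had a median of 8.42 (6.46 to 11.4) and stood at the 75.6th percentile. The Dll1- only regions with AP-1 were close to the AP-1-negative ones, with a median fold of 6.22 (5.49 to 7.44). Reads recovered from the deposited values numbered 41 to 277 at the summits, with a median of 50 (45 to 59). Peaks were also narrow, with a median width of 321 bp (261 to 421), against 354 bp (298 to 446) with AP-1 and 501 bp (362 to 691) in the shared regions. Shared regions in the same range of fold were at 437 bp (323 to 613). Weaker Dll1- only regions without AP-1 were narrower still, at 282 bp (235 to 360). More than 1 summit was called in 8.86% (7.94 to 9.87) of the AP-1-negative Dll1- only regions and in 29.1% (28.6 to 29.6) of the shared regions. Other Dll1- only regions were close to the set, at 9.22% (8.16 to 10.4) with AP-1 and 10.3% (9.86 to 10.8) in the weaker ones without it. Folds moved in steps, since a fixed background of 7.20 reads lay under 71.7% of the regions, and the threshold fell on a tie. The nearest regions inside it had folds of 5.003, 5.004 and 5.005 with 41, 85 and 51 reads, and 240 regions that met every other step had exactly the median, 5.001, which 40 reads give over that background, and were left out.

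**Figure D1:**
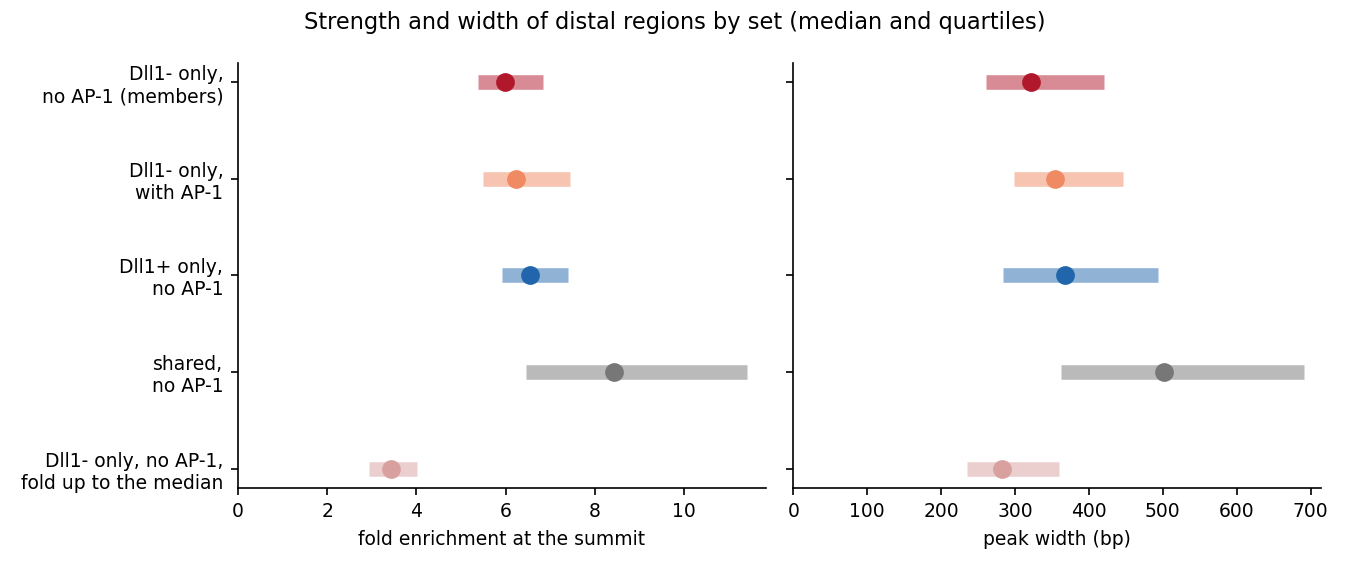
Fold enrichment at the strongest summit (left) and peak width in bp (right) for distal regions of 5 sets; points are medians and bars run between the quartiles, and the Dll1+ only set is read from the Dll1+ list. The AP-1-negative Dll1- only regions have a median fold of 5.98 and a median width of 321 bp, and the shared regions without AP-1 have 8.42 and 501 bp.

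The Dll1- list was the deeper of the 2. Its usual background was 7.20 reads against 3.74 in the Dll1+ list, a ratio of 1.93. When the reads of the AP-1-negative Dll1- only regions were scaled down by this ratio, they kept a median of 25 reads (lowest 21), a median fold of 5.27 and a median −log10 p of 13.3 (lowest 9.64). The strength rule sets a floor under these scaled values, so they are a description and do not show whether depth kept a region out of the Dll1+ list. Of the Dll1+ rows, 25.4% had a −log10 p under 9.64. A row of the Dll1+ list lay within 1000 bp of 316 of them (9.42%) and within 5000 bp of 1171 (34.9%), and the median gap to the nearest such row was 7779 bp (quartiles 3483 to 17982).

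The strongest region, chr7:124828730-124829089, had a fold of 14.8 with 120 reads over a background of 7.20. It was intergenic and far from any coding gene, 615766 bp from the TSS of Kdm8, a JmjC-domain hydroxylase gene. Next came chr15:86194701-86194908 (fold 14.0, 114 reads), 8664 bp from Cerk, the ceramide kinase gene, which was GC-rich at 69.2% and held the repeated run described above. Region chr1:64355198-64355787 (fold 13.9, 113 reads) was 177152 bp from Creb1, which encodes a cAMP-responsive transcription factor. Region chr9:4020007-4020474 (fold 13.8, 112 reads) was 289226 bp from Aasdhppt, and 68.7% of its window was masked as repeat in the reference. The next pair lay in introns and had 107 reads and a fold of 13.2 each, chr16:44002083-44002419 at Gramd1c and chr7:112055896-112056233 at Usp47, a ubiquitin-specific protease gene. Region chr7:43807842-43808445 (fold 13.2, 134 reads) lay 3150 bp from Klk7, a kallikrein protease gene, over a background of 9.26. The remaining 5 of the 12 strongest had folds of 12.2 to 12.6 and were nearest to Atl2, Kcnj6, Rreb1, Ptprn2 and Tbc1d1. None of the 12 held the CTCF consensus, and the shortest gap from any of them to a Dll1+ row was 2847 bp, near Ptprn2.

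"Lacking AP-1" held for the perfect heptamer at the summit, which the choice of regions fixed. A perfect heptamer elsewhere in the region was present in 6.65% (5.86 to 7.54). A heptamer within 1 mismatch lay within 100 bp of the summit in 61.0% (59.3 to 62.6) of the AP-1-negative Dll1- only regions, against 52.7% (52.1 to 53.2) of the shared and 46.5% (44.1 to 49.0) of the Dll1+ only regions without AP-1, of which there were 1580. Weaker Dll1- only regions without AP-1 were close, at 58.8% (58.0 to 59.5). Of the 12 strongest, 10 were 1 mismatch away at best and those near Cerk and Creb1 were further.

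There are 19 heptamers at 1 mismatch from the consensus, counting each with its other strand as 1, and TGACTAA and TGAATCA had the highest shares. TGACTAA was found in 368 of the AP-1-negative Dll1- only regions, 11.0% (9.96 to 12.1). The shared regions without AP-1 held it in 5.18% (4.96 to 5.41) and the Dll1+ only regions in 2.09% (1.49 to 2.92). TGAATCA was found in 315, 9.39% (8.45 to 10.4), against 4.96% (4.74 to 5.19) and 2.91% (2.19 to 3.86). The ratio of the share to that of the shared regions was 2.12 for the first and 1.89 for the second. Over all 19 heptamers the median ratio was 1.10, and 15 had a ratio above 1. The nearest of the others were CGAGTCA, with a ratio of 1.81 from 54 regions, TGACACA with 1.44 and a share of 9.13% (8.20 to 10.1), close to that of TGAATCA, and TAACTCA with 1.41. Against the Dll1+ only regions the median ratio was 1.38, and the order changed. TGACTAA was at 5.25, CGAGTCA at 5.09 and TGACGCA at 4.95, the last 2 from 5 and 4 Dll1+ only regions, and TGAATCA at 3.23. Against the shared regions, 4 of the 19 had a ratio of 1 or below. Heptamers of this kind can overlap one another. At least 1 of the 2 leading forms was held by 647 regions, 19.3% (18 to 20.7), and both by 36.

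**Figure D2:**
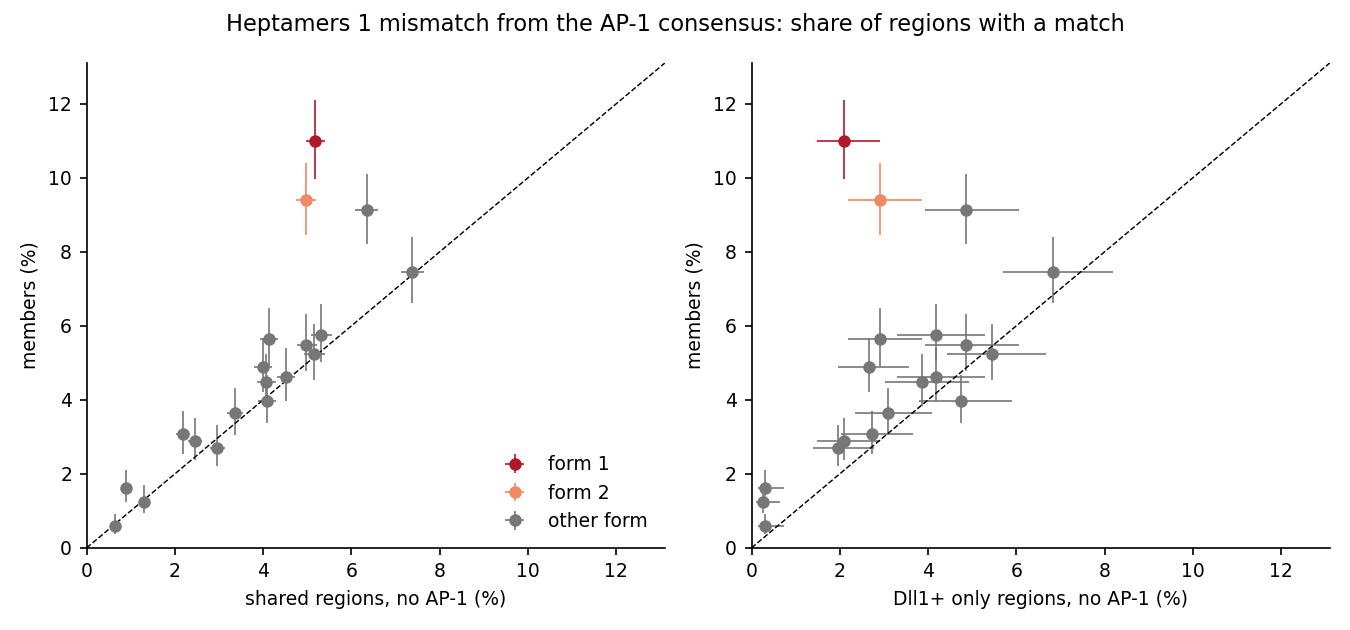
Share of regions with each of the 19 heptamers that are 1 mismatch from the AP-1 consensus, in AP-1-negative Dll1- only regions (members, y axis, %) against shared regions (left) and Dll1+ only regions (right) without AP-1 (x axis, %); bars are 95% Wilson intervals and the dashed line marks equal shares. Form 1 (11.0% of members) and form 2 (9.39%), the heptamers TGACTAA and TGAATCA of the text, lie far above the line in both panels.

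These forms were not particular to regions without a perfect AP-1 sequence. In the Dll1- only regions with AP-1, TGACTAA was present in 9.22% (8.16 to 10.4) and TGAATCA in 7.90% (6.92 to 9.0). Weaker Dll1- only regions without AP-1, with folds up to the median, held them in 7.77% (7.36 to 8.20) and 7.21% (6.82 to 7.63). Among the AP-1-negative Dll1- only regions ranked by fold and divided into 5 equal bins, the share with TGACTAA was 7.90% in the weakest bin and 15.2% in the strongest, while that of TGAATCA went from 10.1% to 11.8% with a low of 6.87% between. An A before the heptamer sharpened the contrast: ATGACTAA was in 4.86% (4.18 to 5.64) of these regions, 1.94% (1.80 to 2.08) of the shared regions and 0.253% (0.0985 to 0.649) of the Dll1+ only regions. ATGAATCA was in 4.29% (3.66 to 5.03), 1.99% (1.86 to 2.14) and 1.01% (0.624 to 1.64). The longer forms were also chosen after the values had been seen. TGACATCA, an ATF-type octamer held by the strongest region near Kdm8, was in 3.58% (3.00 to 4.26) of the set and in 2.96% (2.79 to 3.14) of the shared regions, a small difference.

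CTCF also had a higher share here than in each of the sets compared. Its consensus lay within 100 bp of the summit in 359 of the AP-1-negative Dll1- only regions, 10.7% (9.70 to 11.8). The Dll1- only regions with AP-1 held it in 0.620% (0.382 to 1.00), 16 of 2582. The Dll1+ only regions without AP-1 held it in 2.85% (2.14 to 3.79), and the shared ones in 7.42% (7.16 to 7.70), or 7.15% (6.80 to 7.51) of the 20221 shared regions in the same range of fold. The first of these sets differs from the AP-1-negative regions in the rule itself, and the others were chosen without AP-1 as well. Allowing 1 mismatch in the CTCF consensus raised the shares to 29.0% (27.4 to 30.5), 3.68% (3.02 to 4.48), 10.2% (8.79 to 11.8) and 20.3% (19.9 to 20.8) in the same order of sets and kept that order. Weaker Dll1- only regions held the exact consensus in 3.57% (3.29 to 3.87). Within the set, the share was 8.20% in the weakest of the 5 bins of fold and 12.8% in the strongest, although none of the 12 strongest regions was among those with a match. Over all 102822 distal regions, 4.30% held it.

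**Figure D3:**
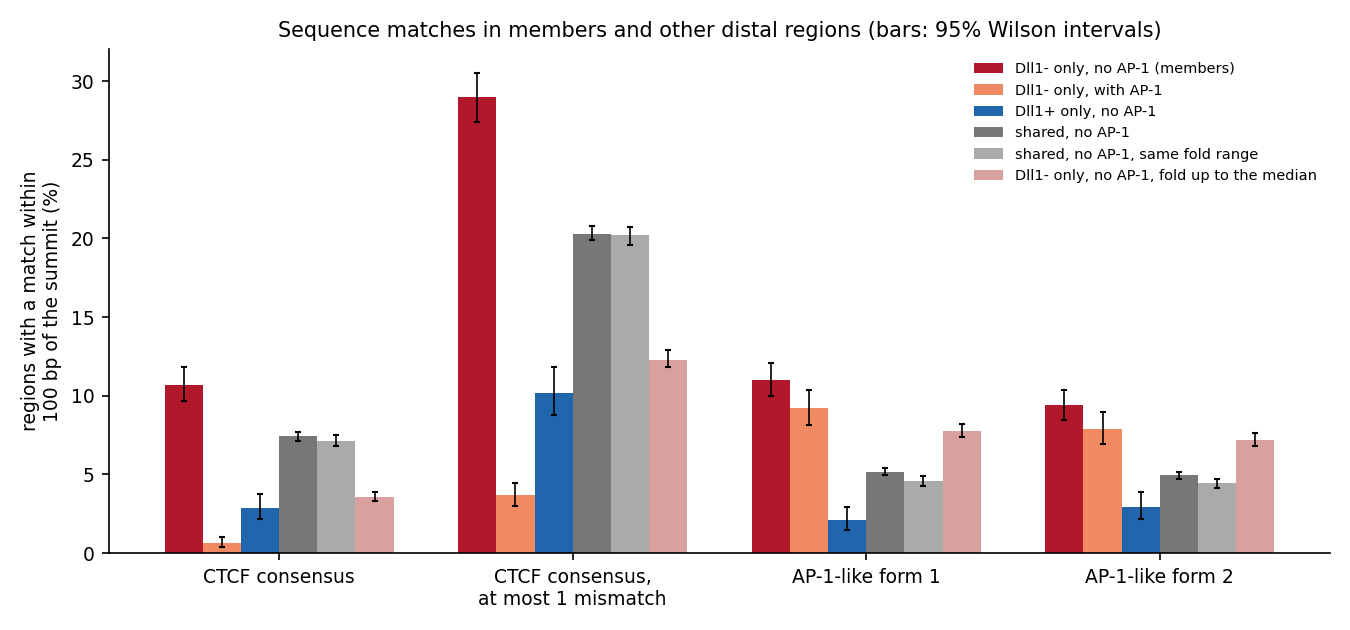
Share of distal regions (y axis, %) with the CTCF consensus, the CTCF consensus at up to 1 mismatch and the 2 leading AP-1-like heptamers (form 1, TGACTAA in the text, and form 2, TGAATCA) within 100 bp of the summit, for 6 sets of regions; error bars are 95% Wilson intervals. CTCF is present in 10.7% of the AP-1-negative Dll1- only regions and 0.620% of those with AP-1, while both forms have their highest shares in the strong Dll1- only sets.

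Matches to CTCF sat on the summit. The median distance of the centre of a match from the summit was 10.5 bp over 361 matches, and 83.1% were within 25 bp, against 12.5 bp and 76.3% in the shared regions. The AP-1-like heptamers were spread more widely, at a median of 36.0 bp for TGACTAA (399 matches, 37.1% within 25 bp) and 38.0 bp for TGAATCA (345 matches, 30.1%). In the shared regions these medians were 37.0 and 40.0 bp. A perfect AP-1 heptamer in the Dll1- only regions with AP-1 was 27.0 bp away at the median (48.2% within 25 bp), between CTCF and the related forms. Counting only matches within 25 bp of the summit, TGACTAA was in 3.82% (3.22 to 4.52) of the set and 1.70% (1.58 to 1.84) of the shared regions, and TGAATCA in 2.62% (2.14 to 3.22) and 1.49% (1.37 to 1.62).

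**Figure D4:**
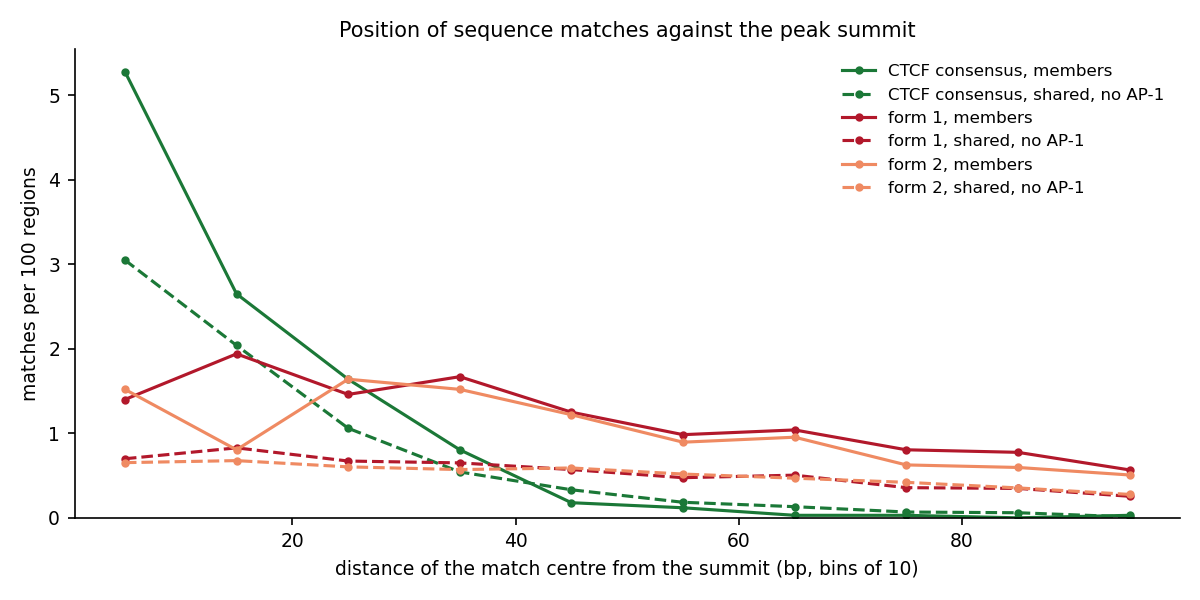
Matches per 100 regions (y axis) by distance of the match centre from the summit (x axis, bins of 10 bp) for the CTCF consensus and the 2 leading AP-1-like forms (form 1, TGACTAA in the text, and form 2, TGAATCA), in AP-1-negative Dll1- only regions (solid) and shared regions without AP-1 (dashed). CTCF matches pile up at the summit, with 83.1% within 25 bp in the Dll1- only regions, and both forms fall off slowly.

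CTCF and the 2 leading forms seldom met, in 9 regions, and 2356 regions (70.3%, 68.7 to 71.8) held neither. Regions with CTCF were narrow, with a median width of 258 bp (quartiles 238 to 298), and close to genes, at a median of 22942 bp from a TSS (11897 to 51282). Those with a leading form and no CTCF, 638 in number, were wider at 349 bp (294 to 436) and further away at 39414 bp (16290 to 88182). Within 50 kb of a TSS lay 73.8% (69.0 to 78.1) of the first and 56.0% (52.1 to 59.8) of the second. Fold enrichment had a median of 6.10 in both. GC content differed a little, with medians of 50.2% and 47.8%.

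The same contrast can be read from the side of the sequence. Among the strong distal regions of the Dll1- list, 11.4% (11.1 to 11.7) were Dll1- only. With the perfect AP-1 heptamer the share was 20.9% (20.2 to 21.6) and without it 8.42% (8.15 to 8.70). Of the latter, regions with TGACTAA were Dll1- only in 16.3% (14.8 to 17.9), those with TGAATCA in 14.8% (13.4 to 16.4) and those with CTCF in 11.7% (10.6 to 12.9). Regions with none of the 3 were at 7.22% (6.95 to 7.51). Regions with any of the 3 sequences, CTCF included, thus had shares between those with and without the perfect AP-1 heptamer.

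Of 46 consensus sequences searched on both strands, 7 had an interval below that of the shared regions, 3 above it and 36 overlapping it. The Dll1- only regions with AP-1 had a share lower still, or about equal, for 6 of the 7, so these low shares were not particular to regions without AP-1. The exception was CAGACAGN, a SMAD sequence, which was in 7.52% (6.67 to 8.46) of the AP-1-negative Dll1- only regions, 9.08% (8.79 to 9.38) of the shared regions, 7.78% (6.56 to 9.21) of the Dll1+ only regions and 9.72% (8.64 to 10.9) of the Dll1- only regions with AP-1. CTTGGCA or TTTGGCA, the half-site of the NF1 family (NFIA, NFIB and relatives), was in 10.6% (9.65 to 11.7) of the AP-1-negative Dll1- only regions, 16% (15.6 to 16.4) of the shared and 20.8% (18.8 to 22.8) of the Dll1+ only regions, and 15% of all distal regions held it. In the Dll1- only regions with AP-1 it was in 8.13% (7.14 to 9.25). ACAATAG or ACAATGG, a SOX sequence, was in 5.73% (4.99 to 6.56), 8.00% (7.72 to 8.28) and 9.37% (8.03 to 10.9), and in 7.34% of all distal regions, with 5.54% (4.72 to 6.49) in the Dll1- only regions with AP-1. GCCNNNGGC, the sequence of the AP-2 factors, was in 9.16% (8.23 to 10.2), 11.5% (11.2 to 11.8) and 5.57% (4.54 to 6.81), and in 7.90% (6.92 to 9.0) of the Dll1- only regions with AP-1. The 10-letter consensus of the IRF factors was in 1.73% (1.34 to 2.23), 2.40% (2.25 to 2.56) and 4.18% (3.30 to 5.28), with 1.55% (1.14 to 2.10) in the Dll1- only regions with AP-1. The forkhead sequence TGTTTAC, not among the 7, was in 3.49% (2.92 to 4.17), near the 3.91% (3.72 to 4.12) of the shared regions and below the 8.80% (7.50 to 10.3) of the Dll1+ only regions, with 4.00% over all distal regions and 2.83% (2.25 to 3.54) in the Dll1- only regions with AP-1. AACCNGTTT or AACTNGTTT, a sequence of the grainyhead-like factors, which maintain epithelial identity, was in 1.85% (1.45 to 2.36), 3.30% (3.12 to 3.49) and 3.10% (2.35 to 4.08), and in 2.56% of all distal regions, with 0.968% (0.657 to 1.43) in the Dll1- only regions with AP-1. GGGCGGG, bound by KLF and SP factors, was in 2.83% (2.32 to 3.45), below the 4.78% (4.56 to 5.00) of the shared regions and above the 1.01% (0.624 to 1.64) of the Dll1+ only regions, against 3.59% over all distal regions and 1.28% (0.912 to 1.79) in the Dll1- only regions with AP-1.

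Besides CTCF, the sequences with an interval above that of the shared regions were an E-box and that of NF-kB, again not in this set alone. CAGATG or CATATG, an E-box of the Twist type, was in 22.2% (20.8 to 23.6) of the set, 18.2% (17.8 to 18.6) of the shared, 18.5% (16.6 to 20.5) of the Dll1+ only and 19.6% of all distal regions, and in 23.5% of the Dll1- only regions with AP-1. The 10-letter NF-kB consensus was in 3.73% (3.14 to 4.42), 2.89% (2.72 to 3.07) and 1.71% (1.18 to 2.47), with 2.93% over all distal regions. Weaker Dll1- only regions without AP-1 held it in 4.07% (3.77 to 4.39) and the Dll1- only regions with AP-1 in 3.37% (2.74 to 4.14). Other sequences hardly differed: CAGGTG, the E-box of the Snai type, was in 18.7% (17.4 to 20.1) of the set and 19.5% (19.1 to 19.9) of the shared regions. The TEAD sequence GGAATG was in 14.9% (13.8 to 16.2) and 15.7% (15.3 to 16.1), and CGTGGGAA or TGTGGGAA, bound by the Notch effector RBPJ, in 2.24% (1.79 to 2.79) and 2.00% (1.86 to 2.15). A match is a string of letters and does not show that a factor was bound.

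By position, 45.0% (43.3 to 46.7) of the AP-1-negative Dll1- only regions were intergenic and 44.4% (42.7 to 46.1) lay in introns of protein-coding genes, near the 41.1% and 46.2% of the shared regions. Coding exons held 1.64% and untranslated exons 2.09%. The median distance to a protein-coding TSS was 31431 bp (quartiles 12918 to 74747), as in the shared regions (30764 bp) and less than in the Dll1+ only regions (49967 bp). GC content of the window was 49.3% at the median, against 49.8% in the shared and 45.3% in the Dll1+ only regions. At least 50% of the window was masked as repeat in 3.34% (2.78 to 4.00), against 1.82% (1.68 to 1.96) in the shared and 4.24% (3.35 to 5.35) in the Dll1+ only regions. The regions were scattered, at a median of 152455 bp from the nearest other of the set, and 193 (5.76%) had another within 10 kb. As a share of the distal regions of each autosome and of chromosome X, they ranged from 2.35% (1.81 to 3.04) on X to 4.60% (3.88 to 5.44) on chromosome 19.

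By the nearest TSS the regions fell to 2738 protein-coding genes, 2245 of which had a single one. Rbm20, which encodes a splicing regulator of muscle proteins, had the most, with 6 of its 11 distal regions in the set. These had folds of 5.05 to 8.87 and lay 27231 to 85681 bp from the TSS on chromosome 19, 4 of them within the gene's introns or an intron of a neighbour. Myc, the growth-promoting transcription factor gene, had 5 of 93 distal regions, all of them far off, at 294870 to 711352 bp, with folds of 5.12 to 8.90. Col1a2, which encodes a chain of type I collagen, also had 5, out of only 11 distal regions, and 10 of the 11 were Dll1- only. Its 5 lay on chromosome 6 between 16978 and 97565 bp from the TSS with folds of 8.17, 6.10, 5.85, 5.61 and 5.49, and 1 of them held CTCF.

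Next came 17 genes with 4 regions each, of which the 12 with the highest summed fold are given here. Jazf1, a zinc finger gene, had 4 of 15 distal regions in the set, with folds from 5.37 to 11.1, and 2 of these held CTCF. At Tbx2, a T-box transcription factor gene, 4 of 23 were in the set, with folds from 5.36 to 9.36. The count was 4 of 15 at Tcf7l1, a transcription factor of the Wnt pathway, 4 of 23 at Chd6, a chromatin remodeller, and 4 of 34 at Stard13. Rnd3 had 4 of 42 and the axon guidance receptor gene Robo1 had 4 of 45. Auts2 had 4 of 102, close to the 3.26% of all distal regions. Ly86, Gmds, Pkdcc and 4930452B06Rik made up the rest of the 12, with 4 of 37, 40, 32 and 19. Pkdcc, a secreted kinase gene, had its 4 at 157273 to 357536 bp, and 2 of them held CTCF.

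The shares near 16 gene lists were set against the same background, 3.26% of distal regions, or 3.27% of those within 50 kb of a protein-coding TSS. The list of fibroblast and stromal matrix genes had the highest share, 21 of 287 regions or 7.32% (4.84 to 10.9), and 9.56% (5.67 to 15.7) within 50 kb. With only regions above the 75th percentile of fold, this list was at 0.348%, against 0.242% of all distal regions, and was no longer the highest. Besides Col1a2, it drew on Col5a1, a fibrillar collagen gene, with 3 of 19 at folds of 5.39 to 5.73, on Sparc, a matricellular protein gene, with 2 of 8 at 6.73 and 7.27, and on Fbln2, a matrix fibulin gene, with 2 of 18 at 5.59 and 6.10. Dll1- only regions with AP-1 made up 5.57% of the regions near this list, against 2.51% of all distal regions. Strong Dll1+ only regions without AP-1 were 1.54% of all distal regions and numbered 0 of 287 near this list, a count that allows a share of up to 1.05% when the limit is set at 3 regions of the total.

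Promoters of cell type markers were read against all 21827 protein-coding genes. Of these, 12245 (56.1%) had a region within 1000 bp of the TSS in both lists, 739 (3.39%) in the Dll1- list only and 142 (0.651%) in the Dll1+ list only. Such a region was present in both lists for 28 of 32 luminal genes, among them Epcam (fold 9.95 in Dll1- and 8.56 in Dll1+), Krt8 (8.29 and 8.08) and Cdh1 (16.2 and 15.2). No such region was found in either list for Ptprc, which encodes CD45, or for Pecam1, which encodes CD31, the antigens used in the sort. Nor was one found for 15 of the 20 immune genes in all, or for 11 of the 20 endothelial and mural genes. Those that had one included Csf1r, a receptor gene of macrophages, in the Dll1- list only (8.53), and Irf8 (10.2 and 8.43), Ikzf1 (12.8 and 10.4) and Kdr (8.25 and 7.39) in both. Of 30 basal and myoepithelial genes, 20 had one in both lists, 2 in Dll1- only, 2 in Dll1+ only and 6 in neither. Acta2, the smooth muscle actin gene (4.57 and 5.59), Krt17 (3.17 and 3.38) and Snai2 (14.1 and 14.2) were among the 20, and the keratin genes Krt5 and Krt14 among the 6. Of 30 fibroblast and stromal matrix genes, 12 had a promoter region in both lists, 8 in the Dll1- list only and 0 in the Dll1+ list only. The 8 were 26.7% (14.2 to 44.4) of the list, against the 3.39% of all protein-coding genes. They were Col1a2 (fold 5.12), Pdgfrb (4.88), Pi16 (4.02), Col6a1 (3.87), Postn (3.58), Fbn1 (3.29), Col6a3 (3.17) and Fap (2.81). All but Col1a2 were under the median of the Dll1- list, 5.001. The 3.39% was not matched for promoter strength, and the Dll1- list was the deeper. Of the 12 in both lists, some had the higher fold in Dll1-, such as Sparc (7.35 and 4.22). Others had it in Dll1+, such as Thbs2 (11.3 and 15.6). Col1a1, Col3a1, Dcn and Lum had no promoter region in either list. The sort did not use a fibroblast marker, and the part of other cell types in the AP-1-negative Dll1- only regions was not tested. For endothelial and mural genes the split was 6 in both lists, 3 in Dll1- only and 0 in Dll1+ only, for immune genes 4, 1 and 0, and for neural and Schwann genes 11, 1 and 0. As shares of their lists, the Dll1- only counts were 15% (5.24 to 36.0), 5.00% (0.888 to 23.6) and 6.67% (1.19 to 29.8).

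Wnt genes were the other list with an interval above the background, 29 of 609 regions or 4.76% (3.34 to 6.76), a narrow margin. Within 50 kb of a TSS they were at 4.88% (2.93 to 8.02), 14 of 287, and that interval contains the 3.27% of the background. Of the 29 at any distance, Myc and Tcf7l1 gave 9. Wnt11, a ligand, had 4 of 19 with folds of 5.03 to 5.83, and Dkk2, a secreted Wnt inhibitor, had 2 of 14 at 5.37 and 6.83. NF-kB genes were at 4.30% (2.48 to 7.37), 12 of 279, with 3 of 11 at Csf2, the gene of the growth factor GM-CSF (folds 5.97 to 8.29), 3 of 25 at Tnfaip3, a feedback inhibitor of the pathway (5.61 to 7.07), and 2 of 11 at Map3k14, the kinase of its non-canonical arm (5.24 and 9.39). Notch genes were at 3.02% (1.70 to 5.33), 11 of 364. These included 3 of 43 at Maml3, a coactivator (5.37 to 9.39), 2 of 9 at Dlk1, a non-canonical ligand gene (7.90 and 8.48), and 2 of 40 at the ligand gene Jag1 (5.12 and 5.49). Both intervals contain the background.

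**Figure D5:**
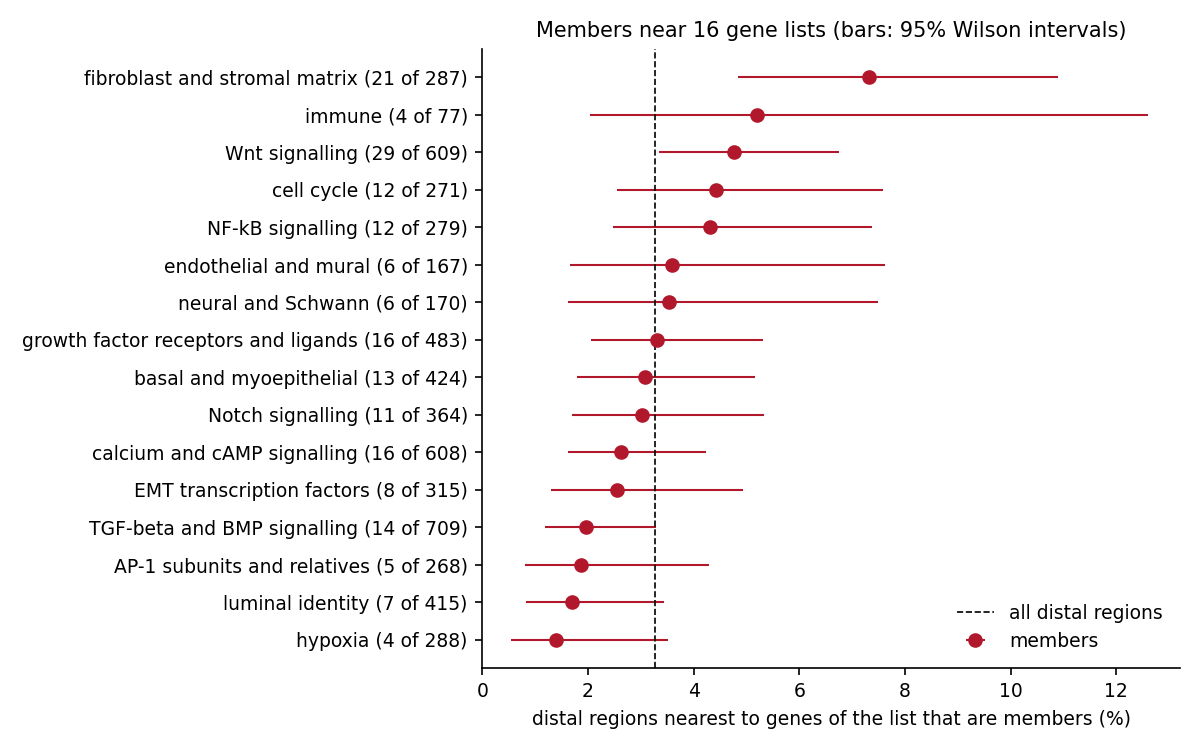
Share of the distal regions nearest to the genes of each list that are AP-1-negative Dll1- only (members, x axis, %) for 16 gene lists, with counts beside the names and 95% Wilson intervals; the dashed line is the 3.26% of all distal regions. The fibroblast and stromal matrix list is highest at 7.32%, and the interval of the hypoxia list, the lowest at 1.39%, reaches across the line.

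The intervals of the remaining lists contained the background. Immune genes were at 5.19% (2.04 to 12.6), from 4 of 77 regions, 2 of them near the transcription factor gene Irf8 (folds 5.37 and 8.42). Cell cycle genes were at 4.43% (2.55 to 7.58), with Mki67 at 3 of 35 and Myc counted again. Endothelial and mural genes were at 3.59% (1.66 to 7.62), neural and Schwann genes at 3.53% (1.63 to 7.49), with 2 of 24 at Ncam1, and growth factor receptors and ligands at 3.31% (2.05 to 5.31), with 2 of 18 at both Pdgfa and Tgfa, 2 of 45 at Nrg1 and 2 of 43 at Pdgfc. Basal and myoepithelial genes were at 3.07% (1.80 to 5.17), where Id4 had 3 of 21 and Trp63, the master regulator of basal epithelium, 2 of 35. Calcium and cAMP genes were at 2.63% (1.63 to 4.23), with Pde4d at 3 of 81 and Cacna1c at 2 of 34, and EMT transcription factors at 2.54% (1.29 to 4.93), with Tcf4 at 2 of 48 and Twist2 at 2 of 25. TGF-beta and BMP genes were at 1.97% (1.18 to 3.29), where the inhibitory Smad7 had 3 of 55 and Smad2 had 2 of 18. AP-1 subunits and relatives were at 1.87% (0.799 to 4.29), luminal genes at 1.69% (0.819 to 3.44), 7 of 415, and hypoxia genes at 1.39% (0.541 to 3.52). No gene of these 3 lists had more than 1 region of the set.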

How the data were processed

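ATAC-seq of 7 samples from 4 tumours was analysed as 2 pooled peak lists. For each group, its replicates went through the ENCODE pipeline for ATAC-seq as 1 batch, run by the authors, and the labels name build mm10 (GRCm38). The aligner, the peak caller and the thresholds are not given in the sources used here. Each row of the deposited lists holds an interval and a summit offset, a fold enrichment ratio at the summit, a −log10 p-value, a −log10 q-value (not used here) and a score, all as the authors' caller gave them. The deposited score was used for nothing further. No deposited interval ran past a chromosome end (0 of 21 chromosomes).

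Rows of both lists were merged where they overlapped or touched. Strength was compared within a list. The nearest protein-coding TSS came from GENCODE M21 (basic set), and sequence from GRCm38.p6 (RefSeq). The window was 201 bp, 100 bp each side of the strongest summit, and a consensus was searched on both strands. Shared regions of the same fold range were those up to the 95th percentile of the members' fold. Reads n and background l were recovered from fold = (n + 1)/(l + 1) and the Poisson p-value of exceeding n. The recovery, merging and motif search were tested on simulated data. It failed in 5034 Dll1- and 1516 Dll1+ rows with extreme p-values, among them 1014 of the shared regions and 0 of the members, so quartiles of fold are used for the shared set. Depth is known only through these reads.

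The members, the gene lists (16 lists, 438 genes) and the 46 consensus sequences were chosen with earlier results of these data known. The regions named are the 12 with the highest fold, and the genes are the 15 with the most members and up to 4 genes with at least 2 members per list. The marker promoters named were picked from their lists after the values had been seen. An item of these is not reported here. The sequences shown are the 6 strongest windows and the strongest with a CTCF match, without chromosome 18 and untranslated exons, to which a second CTCF window and a window for each leading AP-1-like heptamer were added. No test was run, because the lists pool their samples. Alternatives changed the strength, distance, AP-1, overlap and depth rules. Python 3.11.15, numpy 2.4.6, pandas 2.3.3, scipy 1.17.1 and matplotlib 3.10.9 were used.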

Additional observations from a re-analysis of the deposited data

How the results depend on the processing

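Of the alternatives to the rule, those on the distance to a TSS, on AP-1 within 50 bp or anywhere in the region, and on a Dll1+ row within 1000 bp left 3037 to 3857 regions, within 1.5 times the 3353. Scaling reads to the Dll1+ depth could remove no region, because the strength rule had already set every one past the weakest Dll1+ row, so it says nothing of stability. Stricter strength gave 249 regions above the 75th percentile of fold and 2185 above the median −log10 p. In the former the CTCF consensus was in 12.9%, TGACTAA in 19.3% and TGAATCA in 14.9%, and in the latter TGACTAA was in 12.3%. Dropping every AP-1 heptamer with 1 mismatch left 1308 regions, 16.8% of them with CTCF and, by construction, 0% with TGACTAA and 0% with TGAATCA. With AP-1 sought only within 50 bp of the summit, 9.46% held CTCF. Chosen after seeing the data, CTCF at up to 1 mismatch was in 29.0%, and TGACTAA and TGAATCA within 25 bp of the summit were in 3.82% and 2.62%. Above the 75th percentile of fold, the share near every gene list moved below its interval, since 0.242% of distal regions then qualified. Against that 0.242%, the fibroblast and stromal matrix list was at 0.348% and the Wnt list at 0.328%. The immune list was then the highest, at 1.30%, so the order of the lists did not hold at this setting. Within 50 kb of a TSS, the share near Notch genes was 1.35% and that near neural and Schwann genes 1.56%. The cause of the changes that follow from fold or −log10 p was not tested. No paired analysis was possible because each list pools the samples of its group, and leaving out each sample was not possible for the same reason. Depth is known only through the recovered reads.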
